A study of Mus musculus with 9 samples.

Results

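Lungs that lack Dnmt1 in their mesenchyme were compared by how severe they were: 3 conditional knockout (CKO) lungs of strong phenotype, small and with widespread bleeding in the parenchyma, against 3 CKO lungs of weak phenotype, small without that bleeding. The groups follow the phenotype in the library titles, and the 6 libraries are part of the 9 of the study; the other 3 are wild type. Every sample was a whole mouse lung at E18.5, and both CKO groups carried the same alleles, Tbx4-rtTA, Tet-O-Cre and Dnmt1-D/D. In this system the rtTA activator, made under Tbx4 control in mainly mesenchymal lung cells, turns on Cre from the Tet-O promoter, so cell types that were not targeted are part of every sample. RNA was sequenced from TruSeq libraries as single reads of 75 nt. Libraries are named MUT_S for strong CKO, MUT_W for weak CKO and WT for wild type, followed by numbers. No source used here says what the middle number of a name stands for or which embryos were littermates, so p-values describe the spread among these 9 lungs, which may in part be technical.

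Dnmt1 is the maintenance methyltransferase that copies DNA methylation onto newly replicated strands, and cells that divide without it lose methylation and switch on genes that methylation keeps silent. Blood that leaves the vessels brings red cells, which before birth still carry much haemoglobin mRNA, and platelets, which carry RNA from megakaryocytes. Haem set free from haemoglobin induces Hmox1, the haem-degrading enzyme, and the iron is stored in ferritin. Vessel walls depend on junction proteins such as the cadherin Cdh5 and on the ligand Angpt1, which acts on the endothelial receptor Tek. In bulk RNA, fewer cells of a type and less RNA per cell cannot be told apart.

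Rpl35a, which encodes a protein of the large ribosomal subunit, was the 1 gene of 19374 tested that was called between strong and weak CKO lungs at an edgeR adjusted p under 0.05 (0.00516%), and it was lower in the strong lungs. No gene was called higher (0%). The second smallest adjusted p was 0.67. At an unadjusted p under 0.05, edgeR gave 544 genes higher (2.81%) and 555 lower (2.86%), together 5.67% of the genes tested. DESeq2 called 2 genes higher and 13 lower. All 3 strong libraries lay above all 3 weak libraries for 1298 genes (6.7%) and below them for 1303 genes (6.73%); these shares are the background for the gene groups below, in which such genes are said to be without overlap. With 1 of the 6 CKO libraries left out fewer values have to be apart, and the shares over all genes were 9.83% to 14% higher and 10.1% to 14.1% lower. The median absolute log2 change was 0.11, and the median standard error of a log2 change was 0.14. Against the 3 wild type lungs, which both comparisons share, 2830 genes were higher (14.6%) and 2139 lower (11%) in strong CKO, and 1761 were higher (9.09%) and 1042 lower (5.38%) in weak CKO.

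Strong and weak libraries were about as far apart as libraries within a group. The root mean square log2 distance averaged 0.481 over the 9 pairs of a strong and a weak library, 0.467 within strong and 0.473 within weak. MUT_S_268_4 lay closer to MUT_W_268_3 (0.408) and MUT_W_549_3 (0.419) than to the other strong libraries (0.448 and 0.477). Every strong library (25607595 to 29420807 counts) was shallower than every weak one (29603791 to 33156732 counts). MUT_S_860_3 stood apart in interferon-stimulated genes, and MUT_W_268_3 was the CKO library with Y-linked RNA: Ddx3y, a Y-linked helicase gene, was at 166 CPM (TMM-scaled counts per 1e6 counts) there and at most 0.0377 CPM in the other 5. Xist, the RNA that silences an X chromosome, was at 956 CPM in that library and 2120.2 to 2572 CPM in the other 5. In WT_265_1, WT_268_1 and WT_549_2, Ddx3y was at 165, 0.0323 and 159 CPM and Xist at 2.51, 2076 and 4.51 CPM. Y-linked RNA was thus uneven among the groups. Comparisons with wild type, and that of strong with weak CKO, may include differences of sex, and the part of sex in single genes was not tested. With the level of Y-linked genes added to the fit of strong against weak CKO, 0 genes were called higher and 1 lower, Rpl35a.

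**Figure D1:**
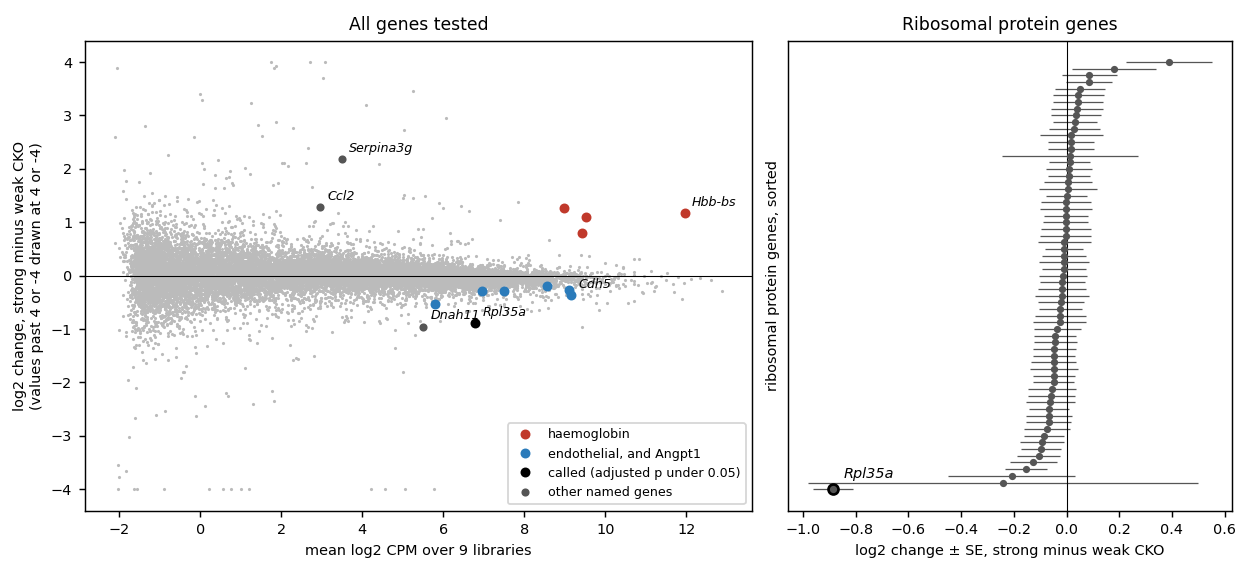
Left: log2 change of each tested gene, strong minus weak CKO, against its mean log2 CPM over 9 libraries, with 4 haemoglobin genes in red, 5 endothelial genes and Angpt1 in blue, Rpl35a in black and other named genes in grey. Right: log2 change with its standard error for 65 ribosomal protein genes, sorted; Rpl35a at -0.89 is apart from the others, the next lowest of which is Rpl29 at -0.24 with a wide error.

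The targeted gene had overlapping levels in the 2 phenotypes. Dnmt1 was at 59.1, 69.1 and 80.6 CPM in the weak and 61.98, 78.7 and 65.1 CPM in the strong libraries, against 79.1, 121 and 97.2 CPM in wild type. No difference was called, with a log2 change of -0.02 ± 0.17 (SE, 95% interval -0.40 to 0.35, edgeR adjusted p = 0.994, n = 3 per group). Counts cover the whole gene and the deleted exons are not stated, so these values do not measure how much of the tissue was recombined.

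Germline genes, which promoter methylation silences in the body, were on in every CKO library. Dazl, a germ cell RNA-binding protein gene, was at 0.218 to 0.291 CPM in wild type, 228, 234 and 145 CPM in weak and 259, 201 and 287 CPM in strong CKO. Taf7l, a germ cell transcription factor subunit, was at 39.1 to 62.3 CPM in weak and 52.98 to 74.4 CPM in strong CKO, with overlap. Stag3, a meiotic cohesin subunit, was at 40.4 to 48.4 and 52.9 to 59.7 CPM, and Tuba3a, a testis tubulin with a close copy that could share its reads, at 6.92 to 10.4 and 10.7 to 19.2 CPM, both without overlap. Of 28 germline genes tested none was called, 25 had a positive log2 change, and the median was 0.27, beside 0.0049 over all genes tested. Without overlap 2 were higher (7.14%, beside 6.7% of all genes) and 1 lower (3.57%, beside 6.73%), so neither share was far from that of all genes. The lower one was Tdrd9, a piRNA pathway helicase, at 12.4, 9.22 and 6.61 CPM in weak and 5.01, 4.78 and 5.25 CPM in strong CKO. Without MUT_S_268_4, 12 were higher (42.9%, beside 14% of all genes). Without MUT_W_268_3, 5 were (17.9%, beside 11.2%), and without MUT_W_265_2, 4 were (14.3%, beside 12.1%). Without MUT_S_860_3, 3 were (10.7%, beside 11.5%), and without MUT_W_549_3 or MUT_S_265_5, 2 were (7.14%, beside 14% and 9.83%).

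Among 15 genes of the methylation machinery none was called and 12 had a negative log2 change. Lower without overlap were 3 (20%, beside 6.73% of all genes), the genes of the enzymes that oxidise methylcytosine. Without MUT_W_549_3, 5 were lower, beside 13.9% of all genes. Tet1 was at 35.8 to 37.2 CPM in weak and 30.3 to 34.2 CPM in strong CKO, Tet2 at 113 to 122 and 99.7 to 111 CPM, and Tet3 at 202 to 231 and 193 to 198 CPM. Dnmt3a, a de novo methyltransferase gene, had a log2 change of -0.02 ± 0.07 (adjusted p = 0.992). Among 31 imprinted genes none was called and 22 had a negative log2 change. Without overlap 1 was higher (3.23%, beside 6.7% of all genes) and 4 were lower (12.9%, beside 6.73%). Without MUT_S_268_4 or without MUT_W_265_2, 8 were lower, beside 14.1% and 11.7% of all genes. The higher one was H19, a growth-restraining RNA, at 1915 to 2006 CPM in weak and 2117 to 2737 CPM in strong CKO. Meg3 and Dlk1, which lie in 1 imprinted cluster, had log2 changes of -0.10 ± 0.19 and -0.29 ± 0.15 (adjusted p = 0.96 and 0.882).

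Promoter sequence is shown for the called gene and for stress genes without overlap between the groups. It is also shown for a pair of beta globin genes that were higher in strong than in weak CKO. Each run is the 100 bases before the RefSeq start in GRCm38.p6, on the gene's strand. Capitals mark a match, on either strand, to GGGCGG (GC box) for Rpl35a, CCACACCC (CACCC box) for the globins and TGATGNAA (the core of sites bound by ATF4 with C/EBP proteins) for Slc7a11 and Asns. The windows are chr16:33056353-33056452 (+) for Rpl35a, chr7:103827929-103828028 (-) for Hbb-bs, chr7:103813924-103814023 (-) for Hbb-bt, chr3:50443614-50443713 (-) for Slc7a11 and chr6:7693210-7693309 (-) for Asns.
Rpl35a: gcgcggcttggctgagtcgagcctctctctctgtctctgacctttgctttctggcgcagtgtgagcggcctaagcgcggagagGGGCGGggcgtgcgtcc
Hbb-bs: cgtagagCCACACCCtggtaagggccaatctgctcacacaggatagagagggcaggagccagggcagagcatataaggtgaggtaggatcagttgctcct
Hbb-bt: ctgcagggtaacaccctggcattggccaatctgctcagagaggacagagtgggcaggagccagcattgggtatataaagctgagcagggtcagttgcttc
Slc7a11: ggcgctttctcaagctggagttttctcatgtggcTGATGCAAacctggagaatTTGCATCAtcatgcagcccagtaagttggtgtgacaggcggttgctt
Asns: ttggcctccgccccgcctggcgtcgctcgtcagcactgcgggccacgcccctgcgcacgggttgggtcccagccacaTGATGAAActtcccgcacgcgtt

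Of the 32851 RefSeq promoters, 32.7% held GGGCGG, 3.2% held CCACACCC and 3.45% held TGATGNAA in the 250 bases before the start, counting both strands. TGATGNAA was found in 4 of the 17 matched genes of the unfolded protein and integrated stress response list, Chac1 among them, and in 1 of the 13 matched genes of the oxidative stress list, Slc7a11. CCACACCC was found in 1 of the 9 matched haemoglobin genes, Hbb-bs. A match is a description of letters only.

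Rpl35a lies at chr16:33056453-33060189 on the plus strand (GRCm38, GENCODE vM21). It was at 141, 149.6 and 163 CPM in the weak libraries and at 89.02, 78.99 and 77.6 CPM in the strong libraries, against 102, 92.2 and 96.7 CPM in wild type. Strong libraries were lowest, wild type in between and weak libraries highest, with no overlap between any of the 3 groups. The gene fell by 0.89 ± 0.08 on the log2 scale in strong against weak CKO, a 1.85-fold difference (95% interval -1.06 to -0.72, edgeR adjusted p = 0.00623, n = 3 per group). Against wild type it rose by 0.64 ± 0.08 in weak CKO (adjusted p = 0.000475) and fell by 0.24 ± 0.08 in strong CKO (adjusted p = 0.0411). Among 65 ribosomal protein genes the median log2 change was -0.01, Rpl35a was the only one called, and Rps2 was the highest at 0.39. Its neighbour Iqcg, 234 bases away on the other strand, was at 22.8 to 27.3 CPM in weak and 29.6 to 33.1 CPM in strong CKO, the opposite order. A gene model that overlaps Rpl35a on the minus strand cannot be told apart from it if counting ignored strand. When the erythroid level of each library was added to the fit, the log2 change was -0.87 and the call was lost (adjusted p = 0.146). That level was higher in every strong library (3.24 to 3.66) than in every weak one (2.80 to 3.13). Among the CKO libraries the level therefore cannot be told apart from phenotype, while wild type libraries were at 3.80, 3.41 and 3.21. Why the call was lost was not tested.

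Haemoglobin RNA was higher in every strong library than in every weak library. Haemoglobin genes took 0.711%, 0.67% and 1.25% of counts in the strong libraries and 0.42%, 0.39% and 0.37% in the weak libraries. Wild type lungs, at 0.669%, 0.369% and 0.49%, spanned the weak level and came close to the lowest strong library. In TMM CPM the haemoglobin genes summed to 7132 in WT_265_1, above MUT_S_265_5 (6861) and MUT_S_268_4 (6538). Against wild type, Hbb-bs changed by 0.70 ± 0.28 in strong CKO and by -0.47 ± 0.28 in weak CKO. Neither change was called (edgeR adjusted p = 0.0956 and 0.307). Of 7 haemoglobin genes tested none was called, 5 were higher without overlap (71.4%, beside 6.7% of all genes) and 0 were lower, and the median log2 change was 1.09. Without MUT_S_860_3, the library with the most haemoglobin, the median was 0.73 and 5 were higher without overlap, beside 11.5% of all genes.

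The adult beta globin gene Hbb-bs was at 2728, 2590.2 and 2408 CPM in the weak and 4607, 4453 and 8407 CPM in the strong libraries, a log2 change of 1.18 ± 0.28. Its edgeR adjusted p was 0.873, a value that many genes share here: it holds for every log2 change below that is given with its error and no adjusted p. Hbb-bt, its neighbour, was at 465 to 568 CPM in weak and 819.8 to 976 CPM in strong CKO (0.81 ± 0.21). The alpha globin genes Hba-a1 and Hba-a2 had log2 changes of 1.09 ± 0.37 and 1.26 ± 0.32. Hba-a1 and Hba-a2 are near-identical copies, and Hbb-bs and Hbb-bt are much alike, so reads could be split between them. The embryonic gene Hba-x was at 0.647 to 0.971 CPM in weak and 1.18 to 2.41 CPM in strong CKO, without overlap. Hbb-y and Hbq1b, also near the lower limit of detection, overlapped, with log2 changes of 0.81 ± 0.38 and 0.59 ± 0.46 (adjusted p = 0.906 for Hbq1b).

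Some genes of red cell maturation were higher without overlap too. Alas2, the rate-limiting enzyme of erythroid haem synthesis, was at 132, 107 and 104 CPM in weak and 179, 193 and 329 CPM in strong CKO (1.03 ± 0.29). Fech, which inserts the iron into haem, was at 72.6 to 82.6 and 100.5 to 141 CPM (0.59 ± 0.16), and Slc25a37, the mitochondrial iron importer, overlapped (0.34 ± 0.12). These belong to 12 haem synthesis genes, of which 7 had a positive log2 change, and the median was 0.02. Without overlap 2 of the 12 were higher (16.7%, beside 6.7% of all genes) and 0 were lower. Of 22 other erythroid genes tested 15 had a positive and 7 a negative log2 change, 4 were higher without overlap (18.2%) and 0 lower, and the median was 0.27. Without MUT_S_268_4 or without MUT_W_265_2, 4 haem synthesis genes and 8 other erythroid genes were higher, beside 14% and 12.1% of all genes. The anion exchanger gene Slc4a1 was at 15.1 to 26.2 CPM in weak and 26.8 to 49.5 CPM in strong CKO. Bpgm, which makes the ligand that tunes oxygen release, was at 55.4 to 71.7 and 86.5 to 129 CPM. The list also holds Aqp1, a water channel gene, and Car2, a carbonic anhydrase gene, which other cells use as well, and these had log2 changes of -0.21 ± 0.09 and -0.32 ± 0.20 (adjusted p = 0.886 for Car2).

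**Figure D2:**
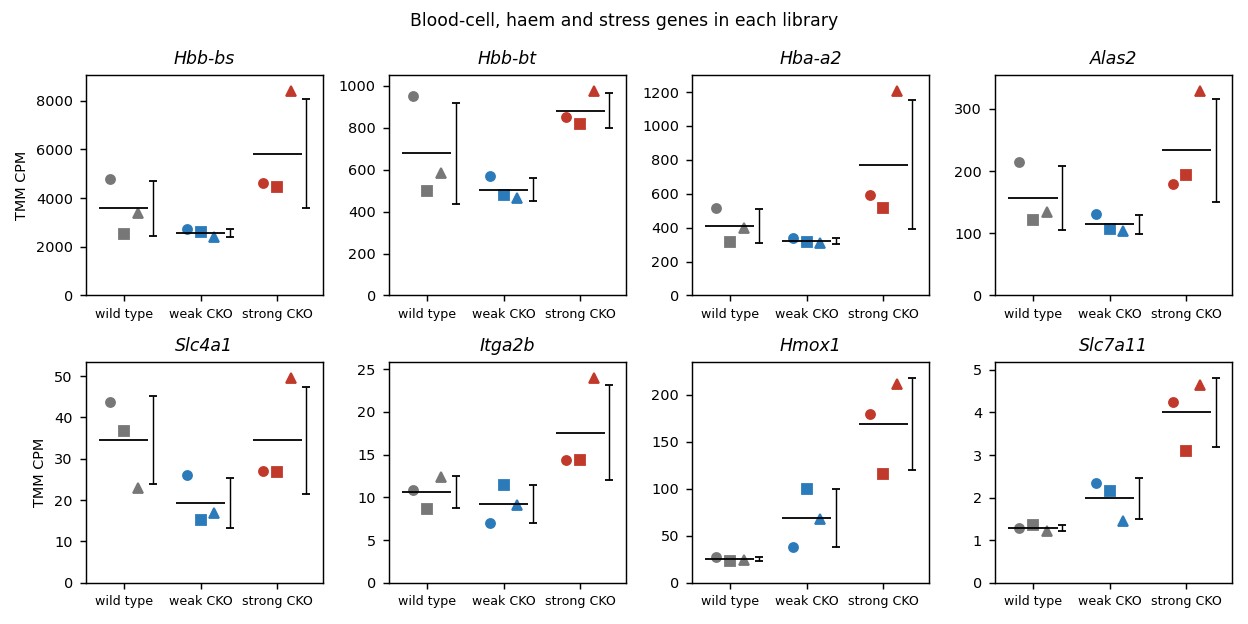
TMM CPM of 8 genes in each library, from 0; circles are WT_265_1, MUT_W_265_2 and MUT_S_265_5, squares WT_268_1, MUT_W_268_3 and MUT_S_268_4, and triangles WT_549_2, MUT_W_549_3 and MUT_S_860_3, lines are group means and bars their SD (n = 3). For each gene the 3 strong CKO libraries lie above the 3 weak CKO libraries; for Hbb-bs, Hbb-bt, Alas2 and Slc4a1 the highest wild type library reaches the strong range.

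Platelet genes lay higher as well, at low levels. Of 16 tested none was called, 7 were higher (43.8%) and 1 lower without overlap, and the median log2 change was 0.65. Itga2b, the platelet fibrinogen receptor subunit, was at 6.98, 11.4 and 9.15 CPM in weak and 14.4, 14.4 and 23.9 CPM in strong CKO (0.94 ± 0.24). Gp9 and Gp5, subunits of the von Willebrand factor receptor, were at 0.658 to 1.25 and 0.715 to 1.43 CPM in weak and 1.43 to 5.25 and 1.51 to 3.41 CPM in strong CKO. Treml1, a receptor of platelet granules, was at 0.477 to 1.07 and 1.66 to 4.05 CPM. MUT_S_860_3 was the highest library for each of these 4 genes; without it the median of the list was 0.38 and 7 genes were higher without overlap, beside 11.5% of all genes. Clec1b, the podoplanin receptor of platelets, went the other way, at 8.65 to 13.3 CPM in weak and 4.895 to 7.49 CPM in strong CKO. Thbs1, Nbeal2 and Vwf had the highest counts of the list and are not restricted to platelets. They overlapped between the groups, with log2 changes of 0.30 ± 0.18, -0.06 ± 0.08 and 0.13 ± 0.20 (adjusted p = 0.882, 0.937 and 0.949). Of 22 coagulation and fibrinolysis genes 11 had a positive and 11 a negative log2 change.

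Among genes of haem breakdown, Hmox1 stood out. It was at 23.4 to 27.4 CPM in wild type, 37.97, 99.7 and 67.7 CPM in weak and 179.5, 116 and 211 CPM in strong CKO. All 6 CKO libraries were above wild type and the 3 strong libraries were above the 3 weak ones, with a log2 change of 1.30 ± 0.35 between them. Against the shared wild type lungs, Hmox1 rose by 1.46 ± 0.36 on the log2 scale in weak CKO (adjusted p = 0.0329) and by 2.76 ± 0.37 in strong CKO (adjusted p = 0.00166). The ferritin chain genes were higher by small amounts: Fth1 was at 659.9 to 683 CPM in weak and 687 to 795 CPM in strong CKO, and Ftl1 at 161 to 165 and 171 to 210.3 CPM. Slc40a1, the iron exporter gene, overlapped, at 74.1, 169 and 121 CPM in weak and 102, 82.98 and 105 CPM in strong CKO. Hp, which encodes the haemoglobin scavenger haptoglobin, and Lrp1, a receptor that takes up haemopexin-bound haem, had log2 changes of 0.16 ± 0.20 and -0.17 ± 0.11 (adjusted p = 0.936 and 0.893). Of 19 genes tested none was called, 9 had a positive and 10 a negative log2 change, and the median was -0.01. Without overlap 3 were higher (15.8%) and 0 lower, and 5 were higher without MUT_S_268_4, MUT_S_265_5, MUT_W_265_2 or MUT_W_268_3, beside 9.83% to 14% of all genes.

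A few stress genes outside haem metabolism lay higher. Slc7a11, the cystine importer that feeds glutathione synthesis, was at 2.35, 2.15 and 1.44 CPM in weak and 4.26, 3.104 and 4.65 CPM in strong CKO (1.02 ± 0.23). Srxn1, which repairs oxidised peroxiredoxins, was at 8.99 to 10.1 and 10.9 to 25.3 CPM, and Txnrd1, a thioredoxin reductase gene, at 78.1 to 88.9 and 91.97 to 106 CPM. Of 15 targets of the oxidant-sensing factor NRF2 none was called, 13 had a positive log2 change, 5 were higher without overlap (33.3%) and 0 lower, and the median was 0.07. The members with the highest counts overlapped: Prdx1, Cat and Pgd, which encode a peroxiredoxin, catalase and an enzyme that makes NADPH, had log2 changes of 0.08 ± 0.07, -0.09 ± 0.14 and 0.02 ± 0.06 (adjusted p = 0.906, 0.947 and 0.978).

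Asns, asparagine synthetase and a target of ATF4, was at 17.5 to 23.9 CPM in weak and 25.2 to 29.6 CPM in strong CKO. Chac1, a glutathione-degrading ATF4 target, was at 1.003 to 1.61 and 1.71 to 3.01 CPM. These were the 2 of 18 unfolded protein and integrated stress response genes that were higher without overlap (11.1%, beside 6.7% of all genes). Of the 18, 0 were lower without overlap, none was called, 13 had a positive log2 change and the median was 0.09. Without MUT_S_268_4, 9 were higher, beside 14% of all genes, and without MUT_W_268_3, 6 were, beside 11.2%. Hspa5 and Pdia4, chaperone genes of the endoplasmic reticulum, and Xbp1, a regulator of such genes, had log2 changes of 0.08 ± 0.09, -0.01 ± 0.07 and -0.03 ± 0.06 (adjusted p = 0.929, 0.994 and 0.968).

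Of 27 hypoxia response genes tested, 0 were higher and 4 lower without overlap (14.8%, beside 6.73% of all genes). None was called, 22 had a negative log2 change and the median was -0.10. Without MUT_W_268_3, 12 were lower, beside 11.1% of all genes, without MUT_S_265_5, 8 were, beside 10.1%, and without MUT_S_860_3, 7 were, beside 10.5%. Vegfa, the main endothelial growth factor, was at 827, 751 and 716 CPM in weak and 764, 742 and 761 CPM in strong CKO, a log2 change of -0.02 ± 0.08 with a 95% interval of -0.21 to 0.17 (adjusted p = 0.992). Lox and Bnip3l, which encode a matrix crosslinking enzyme and a mitophagy receptor, had log2 changes of -0.12 ± 0.09 and 0.04 ± 0.09 (adjusted p = 0.902 and 0.969). Adm, the gene of a vasoactive peptide, was at 3.13 to 4.09 CPM in weak and 2.18 to 2.57 CPM in strong CKO, and Hilpda, a lipid droplet protein gene, at 11.01 to 17.7 and 9.67 to 10.9 CPM, both without overlap. Of 17 glycolysis genes tested, 7 had a positive and 10 a negative log2 change.

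**Figure D3:**
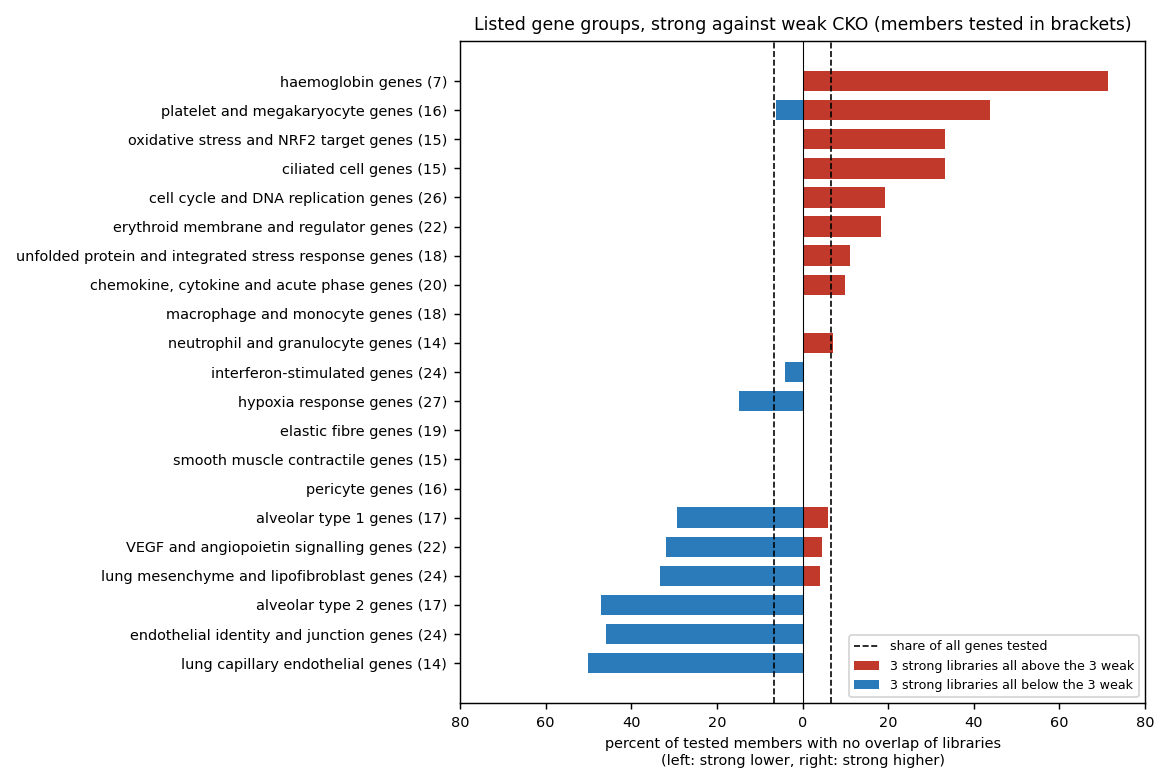
Percent of the tested members of 21 gene lists whose 3 strong CKO libraries all lie above (right, red) or all below (left, blue) the 3 weak CKO libraries; dashed lines mark the shares over all genes tested (6.7% higher, 6.73% lower). Haemoglobin (71.4% higher) and lung capillary endothelial genes (50% lower) are at the ends.

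Endothelial genes lay lower in the strong lungs by small amounts. Of 24 genes of endothelial identity and junctions none was called, 23 had a negative log2 change, 11 were lower without overlap (45.8%, beside 6.73% of all genes) and 0 were higher; the median log2 change was -0.19. Cdh5, the cadherin of endothelial junctions, was at 546, 547 and 548 CPM in weak and 351, 488 and 435 CPM in strong CKO, against 846, 661 and 705 CPM in wild type. The weak libraries were nearly equal, the strong ones were all below them and the wild type ones all above, with a log2 change of -0.37 ± 0.12 between the CKO groups. Against the shared wild type lungs Cdh5 fell by 0.43 ± 0.12 in weak CKO (adjusted p = 0.0433) and by 0.80 ± 0.12 in strong CKO (adjusted p = 0.00143). Pecam1, an adhesion protein gene of the same junctions, was at 524 to 552 CPM in weak and 424 to 491 CPM in strong CKO (-0.27 ± 0.11), and Kdr, the main VEGF receptor gene, at 364 to 374 and 295 to 358 CPM (-0.19 ± 0.10, adjusted p = 0.882). For these 3 genes MUT_S_268_4 was the strong library closest to the weak ones and MUT_S_265_5 the lowest. Without MUT_S_268_4, 16 of the 24 were lower without overlap, beside 14.1% of all genes, and without MUT_W_265_2, 17 were, beside 11.7%.

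Capillary genes lay lower too. All 14 tested had a negative log2 change, none was called, 7 were lower without overlap (50%) and the median was -0.28. Ednrb, the endothelin receptor of one type of lung capillary cell, was at 163, 174 and 170.4 CPM in weak and 123, 151 and 104 CPM in strong CKO (-0.43 ± 0.13). Kitl, the ligand of the receptor Kit, was at 334 to 349 and 215 to 313 CPM (-0.39 ± 0.12), and Ptprb, the phosphatase that restrains Tek signalling, at 258 to 302 and 189 to 253 CPM (-0.34 ± 0.11). Of 16 arterial and venous genes 10 had a negative log2 change, with a median of -0.09, and of 8 lymphatic genes 5 did. Of 16 pericyte genes, which mark the mural cells of capillaries, 14 had a negative log2 change and the median was -0.16. None of them was without overlap over all 6 libraries, but 6 were lower without MUT_S_268_4 and 5 without MUT_W_265_2, beside 14.1% and 11.7% of all genes. Of 15 smooth muscle contractile genes 8 had a negative log2 change, the median was -0.02 and 0 were without overlap, while 5 were lower without MUT_W_265_2.

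In VEGF and angiopoietin signalling, Angpt1 had a larger log2 change than Vegfa, whose values are given above. Angpt1 was at 52.01, 51.2 and 56.3 CPM in weak and 31.7, 44.3 and 34.6 CPM in strong CKO, against 64.7 to 91.03 CPM in wild type, a log2 change of -0.53 ± 0.14 between the CKO groups. Its receptor gene Tek was at 111 to 123 CPM in weak and 84.8 to 119 CPM in strong CKO and overlapped (-0.28 ± 0.13), and the related receptor gene Tie1 was at 157 to 179 and 123 to 151 CPM (-0.28 ± 0.11). Calcrl, a receptor subunit for the peptide from Adm, was at 544 to 801 and 389 to 529 CPM (-0.45 ± 0.25, adjusted p = 0.882). Pgf, placental growth factor, was the 1 gene higher without overlap, at 3.54 to 3.92 CPM in weak and 4.74 to 6.33 CPM in strong CKO. Of 22 genes tested none was called, 19 had a negative log2 change and 7 were lower without overlap (31.8%), some of which are also in the endothelial and capillary lists. Without MUT_S_268_4, 12 were lower, beside 14.1% of all genes, and without MUT_W_265_2, 11 were, beside 11.7%.

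Most listed genes of lung mesenchyme, the tissue in which the deletion was directed, lay lower as well. Of 24 lung mesenchyme and lipofibroblast genes none was called, 8 were lower (33.3%) and 1 higher without overlap, and the median log2 change was -0.22. Without MUT_S_268_4, 12 were lower, beside 14.1% of all genes. Limch1, an actomyosin regulator, was at 592, 548 and 586 CPM in weak and 379, 543 and 445 CPM in strong CKO, against 963 to 1179 CPM in wild type. Macf1, which links actin to microtubules, and Npnt, a matrix ligand of an integrin, had log2 changes of -0.29 ± 0.14 and -0.22 ± 0.08. Wnt2, a growth signal from mesenchyme to epithelium, was at 29.6 to 39.6 CPM in weak and 21.01 to 28.9 CPM in strong CKO, and Fgf10, another, at 53.8 to 64.96 and 32.2 to 51.4 CPM. Gli1, a target of hedgehog signalling, was the member that was higher, at 24.5 to 27.4 CPM in weak and 31.04 to 34.5 CPM in strong CKO. For Limch1, Macf1, Wnt2 and Fgf10, as for Cdh5, MUT_S_265_5 was the lowest strong library and MUT_S_268_4 the highest. All 22 basement membrane genes had a negative log2 change, with 3 lower without overlap (13.6%, beside 6.73% of all genes). With 1 library left out, 7 were lower without MUT_W_549_3 and 6 without MUT_S_860_3. Without MUT_W_265_2, MUT_W_268_3 or MUT_S_268_4, 5 were lower. The shares of all genes beside these counts were 10.5% to 14.1%. Of 19 elastic fibre genes 12 had a positive and 7 a negative log2 change. Fibrillar and associated collagen genes went both ways: 9 of 15 had a positive and 6 a negative log2 change, with a median of 0.10. Dcn, the gene of a matrix proteoglycan, was higher without overlap (0.59 ± 0.12).

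**Figure D4:**
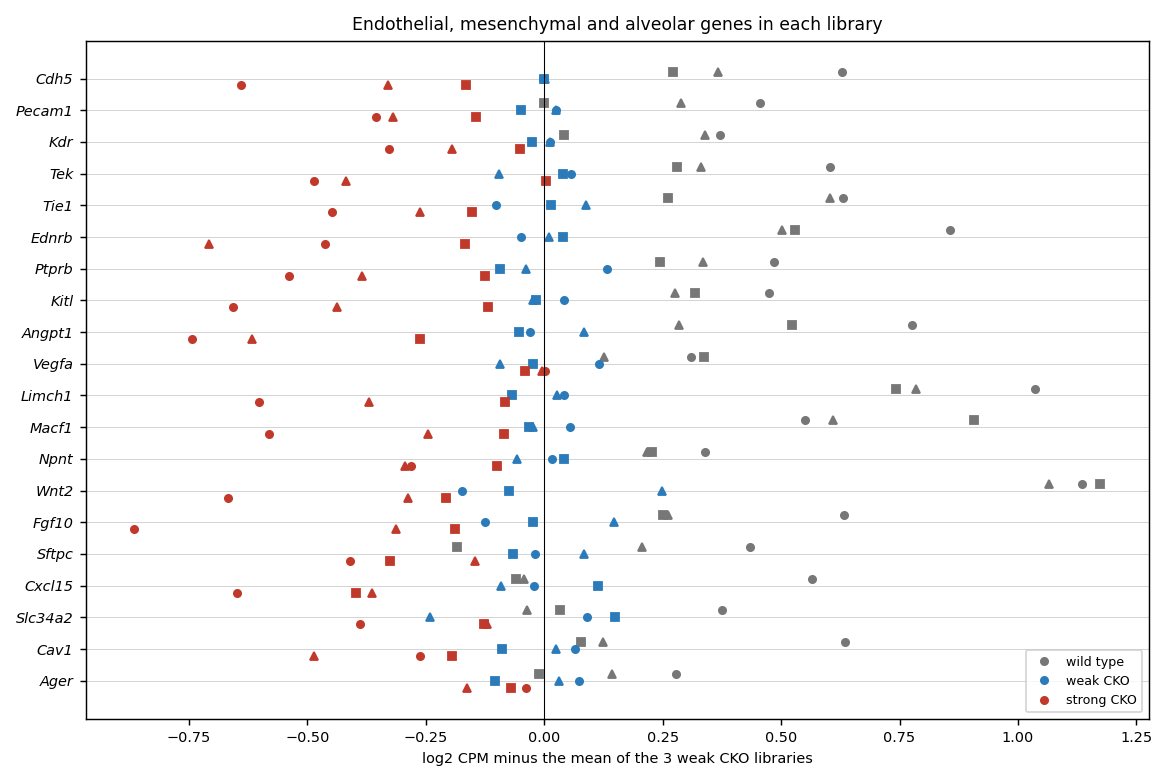
Log2 CPM minus the mean of the 3 weak CKO libraries for 20 endothelial, mesenchymal and alveolar genes, 1 point per library; circles are WT_265_1, MUT_W_265_2 and MUT_S_265_5, squares WT_268_1, MUT_W_268_3 and MUT_S_268_4, and triangles WT_549_2, MUT_W_549_3 and MUT_S_860_3. Most strong CKO points (red) lie below 0 and most wild type points (grey) above it, while the strong points of Vegfa fall among the weak ones.

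Alveolar epithelial genes lay lower too. Of 17 type 2 genes tested none was called, 8 were lower without overlap (47.1%) and 0 were higher, and the median log2 change was -0.20. Sftpc, surfactant protein C, was at 7539, 7303 and 8093 CPM in weak and 5747, 6094 and 6898 CPM in strong CKO (-0.29 ± 0.15, adjusted p = 0.882). Cxcl15, a chemokine of lung epithelium, was at 1650 to 1901 and 1122 to 1366 CPM (-0.47 ± 0.16), and Slc34a2, the phosphate transporter of type 2 cells, overlapped (-0.22 ± 0.14, adjusted p = 0.901). Without MUT_W_549_3, 12 of the 17 were lower without overlap, beside 13.9% of all genes. Of 17 type 1 genes 14 had a negative log2 change. Without overlap 5 were lower (29.4%, beside 6.73% of all genes) and 1 was higher (5.88%, beside 6.7%). Without MUT_S_268_4 or MUT_W_268_3, 9 were lower, beside 14.1% and 11.1% of all genes, and without MUT_W_549_3, 8 were. Cav1, Ager and Emp2, which encode membrane proteins of these flat cells, had log2 changes of -0.31 ± 0.15, -0.09 ± 0.10 and -0.16 ± 0.10 (adjusted p = 0.929 for Ager and 0.891 for Emp2).

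Listed ciliated cell genes lay higher. All 15 tested had a positive log2 change, none was called, 5 were higher without overlap (33.3%) and the median was 0.18. Foxj1, the regulator of motile cilia, was at 87.9 to 111 CPM in weak and 122 to 154 CPM in strong CKO, and Rsph1, a radial spoke protein gene, at 31.5 to 33.03 and 36.5 to 40.03 CPM. Tppp3, a tubulin-binding protein gene, and Dnah5, a dynein arm motor gene, overlapped, with log2 changes of 0.23 ± 0.11 and 0.11 ± 0.41 (adjusted p = 0.991 for Dnah5). Without MUT_W_265_2, 12 of the ciliated genes were higher without overlap, beside 12.1% of all genes. Dnah11, a motile cilia gene that is not in the list, went the other way. It was lower in strong CKO without overlap (-0.96 ± 0.17, edgeR adjusted p = 0.67).

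Several inflammatory genes were high in MUT_S_265_5 and MUT_S_860_3 but not in MUT_S_268_4. Ccl2, the main chemokine for monocytes, was at 0.349 to 0.614 CPM in wild type, 6.44, 7.904 and 5.51 CPM in weak and 20.03, 7.28 and 21.2 CPM in strong CKO. Its relative Ccl7 was at 1.81, 1.19 and 1.16 CPM in weak and 6.97, 1.21 and 7.39 CPM in strong CKO. Cxcl1, a neutrophil chemokine, was at 1.601, 1.73 and 0.971 and 3.35, 1.71 and 3.71 CPM. In each, MUT_S_268_4 lay within the weak range. Log2 changes were 1.29 ± 0.35 for Ccl2 and 1.91 ± 0.57 for Ccl7; without MUT_S_268_4 they were 1.64 and 2.38 with an edgeR adjusted p of 0.0462 for each, so this library decided the call. Of 20 chemokine, cytokine and acute phase genes tested none was called, and 2 were higher without overlap (10%). These were Socs3, a feedback inhibitor of cytokine signalling, at 23.8 to 27.1 CPM in weak and 28.5 to 39.4 CPM in strong CKO, and Icam1, an adhesion receptor for leukocytes, at 161 to 169 and 171 to 202 CPM. Without MUT_S_268_4, 15 of the 20 were (75%, beside 14% of all genes), and without MUT_W_268_3, 5 were (25%, beside 11.2%). Leaving out any other CKO library gave 2 or 3 (10% to 15%, beside 9.83% to 14% of all genes). Vcam1, another adhesion receptor gene, and Saa3, an acute phase protein gene, had log2 changes of 0.18 ± 0.11 and -0.13 ± 0.30 (adjusted p = 0.893 and 0.971).

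Interferon-stimulated genes were high in 1 strong library. Stat2, a transcription factor of interferon signalling, was at 60.2, 53.7 and 50.8 CPM in weak and 44.6, 52.02 and 135 CPM in strong CKO, the last value in MUT_S_860_3; wild type libraries were at 52.2 to 71.1 CPM. Cxcl10, an interferon-induced chemokine, was at 3.099, 2.57 and 1.03 and 4.59, 2.43 and 21.9 CPM. Ddx58, the RNA sensor RIG-I, was at 67.99 to 95.8 and 59.2, 75.2 and 117 CPM, a log2 change of 0.07 ± 0.24 (adjusted p = 0.99). Of 24 genes tested 23 had a positive log2 change and the median was 0.49, which became -0.34 without MUT_S_860_3. None was called, 0 were higher without overlap and 1, Ifi27, was lower; without MUT_S_860_3, 3 were lower, beside 10.5% of all genes, and without MUT_W_265_2, 2 were higher, beside 12.1%.

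**Figure D5:**
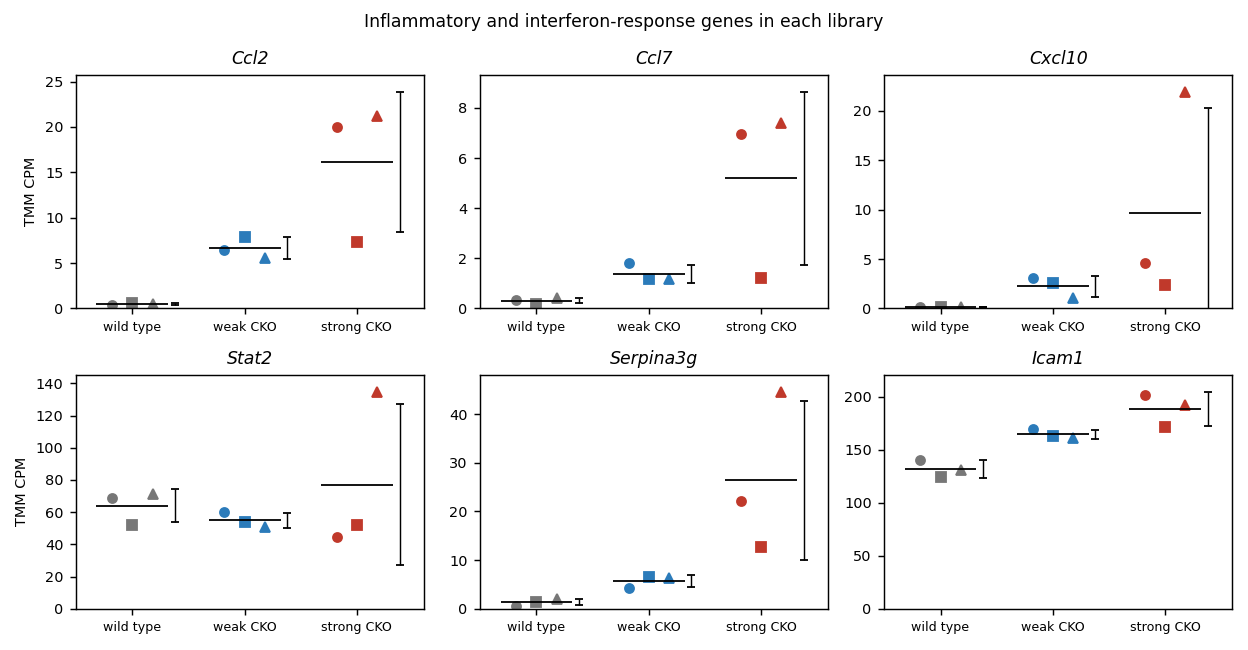
TMM CPM of 6 inflammatory or interferon-response genes in each library, from 0; circles are WT_265_1, MUT_W_265_2 and MUT_S_265_5, squares WT_268_1, MUT_W_268_3 and MUT_S_268_4, and triangles WT_549_2, MUT_W_549_3 and MUT_S_860_3, lines are group means and bars their SD (n = 3), drawn only above 0. Ccl2 and Ccl7 are high in 2 of the 3 strong CKO libraries, Stat2 and Cxcl10 stand out in MUT_S_860_3, and MUT_S_268_4 is the lowest strong library in each panel except that of Stat2.

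Macrophage and monocyte genes overlapped between the groups over all 6 libraries. Of 18 tested, 13 had a positive and 5 a negative log2 change, the median was 0.14, and 0 were higher and 0 lower without overlap. Without MUT_S_268_4, 5 were higher, beside 14% of all genes, and without MUT_W_549_3, 5 were lower, beside 13.9%, so the direction turned with the library left out. The 3 of highest abundance, Lyz2, Mrc1 and Csf1r, were among the 5 with a negative log2 change. They encode a lysozyme, a mannose receptor and the receptor for a macrophage growth factor, and had log2 changes of -0.51 ± 0.30, -0.21 ± 0.15 and -0.16 ± 0.13 (adjusted p = 0.886, 0.902 and 0.906). Of 14 neutrophil genes 9 had a negative log2 change and the median was -0.19. Higher without overlap was 1 (7.14%, beside 6.7% of all genes). Without MUT_S_265_5, 3 were higher, beside 9.83% of all genes, and without MUT_W_549_3, 4 were lower, beside 13.9%. Of these genes, Lcn2, S100a9 and S100a8, which encode antimicrobial proteins of granulocytes, had log2 changes of -0.26 ± 0.24, -0.29 ± 0.43 and -0.14 ± 0.37 (adjusted p = 0.92, 0.946 and 0.975).

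Of 26 cell cycle and replication genes none was called, 25 had a positive log2 change, 5 were higher without overlap (19.2%) and the median was 0.19. Mki67, Top2a and Rrm1, which mark dividing cells, had log2 changes of 0.13 ± 0.16, 0.19 ± 0.17 and 0.11 ± 0.13 (adjusted p = 0.936, 0.92 and 0.935). Without MUT_W_549_3, 16 were higher without overlap (61.5%, beside 14% of all genes), and without MUT_S_860_3, 13 were (50%, beside 11.5%). Leaving out any other CKO library gave 5 or 6 (19.2% to 23.1%, beside 9.83% to 14% of all genes).

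RNA of listed cardiac muscle and liver plasma protein genes was in every library. The summed level of 16 cardiac muscle genes was 382, 351 and 464 CPM in weak and 554, 451 and 344 CPM in strong CKO, with overlap. Of 14 tested, 12 had a positive log2 change, the median was 0.31 and 0 were without overlap. Without MUT_S_860_3, 6 were higher (42.9%, beside 11.5% of all genes), and without MUT_W_549_3, 4 were (28.6%, beside 14%). Without MUT_S_268_4, 2 were lower (14.3%, beside 14.1%), and without MUT_W_268_3, 1 was (7.14%, beside 11.1%). The 13 liver plasma protein genes summed to 97.2, 83.8 and 62.1 CPM in weak and 107, 67.1 and 91.6 CPM in strong CKO. Among 7 tested, 1 was higher (14.3%, beside 6.7% of all genes) and 2 were lower (28.6%, beside 6.73%) without overlap. The source of the cardiac and liver list RNA, and its part in the results, were not tested.

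Beyond Rpl35a, the genes of smallest p among those with a mean log2 CPM of at least 1 were G0s2, Ifi27, Npr3 and Dnah11, which lay lower in the strong lungs without overlap. Predicted genes of lower abundance shared their adjusted p. G0s2, an inhibitor of lipolysis, was at 82.8, 69.8 and 78.8 CPM in weak and 53.3, 51.7 and 55.1 CPM in strong CKO, with wild type at 71.7 to 86.2 CPM. Ifi27, a mitochondrial protein of the interferon response, was at 46.8, 56.8 and 48.3 CPM in weak and 25.9, 28.1 and 30.1 CPM in strong CKO, with wild type at 40.3 to 61.4 CPM. For these 2 genes the weak libraries fell among the wild type ones or close to them.

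Npr3, the clearance receptor for natriuretic peptides, was at 150, 155 and 178 CPM in weak and 100.3, 113 and 112 CPM in strong CKO, both below wild type at 236 to 306 CPM. Dnah11, an outer dynein arm motor of motile cilia, was at 82.4, 80.02 and 54.3 CPM in weak and 37.3, 39.5 and 34.8 CPM in strong CKO, both above wild type at 21.2 to 30.5 CPM. Weak libraries were thus farther than strong ones from wild type for Dnah11, and nearer for Npr3. Cdca7l overlaps Dnah11 on the opposite strand, so reads from the shared stretch cannot be told apart if counting ignored strand. The edgeR log2 changes were -0.53 ± 0.09 for G0s2, -0.85 ± 0.14 for Ifi27, -0.57 ± 0.10 for Npr3 and -0.96 ± 0.17 for Dnah11, each at an adjusted p of 0.67. DESeq2 called all 4, with adjusted p of 0.00148, 0.000323, 0.00561 and 0.000323 in that order.

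The other genes with the smallest p among those lower without overlap, at the same abundance limit, had log2 changes from -0.83 to -0.36. They were Btg3, an antiproliferative factor, Kif26a, an atypical kinesin, Ccbe1, a cofactor of lymphatic growth, Aass, an enzyme of lysine breakdown, Gpm6b, a membrane proteolipid, Pygm, muscle glycogen phosphorylase, and Fam49a. Ccbe1 was at 15.6 to 17.8 CPM in weak and 11.6 to 12.97 CPM in strong CKO, against 35.1 to 39.1 CPM in wild type. Aass was at 3.64 to 4.61 CPM in weak and 1.96 to 2.89 CPM in strong CKO, and Pygm at 30.99 to 36.1 and 19.4 to 27.3 CPM. Btg3 was at 6.45 to 7.15 and 3.92 to 4.52 CPM and Kif26a at 31.3 to 38.1 and 23.8 to 25.8 CPM. Adjusted p was 0.838 for both Btg3 and Kif26a in edgeR and 0.0497 and 0.049 in DESeq2, which called them.

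Among the genes higher without overlap at that limit, those with the smallest p had log2 changes from 0.31 to 2.19; Slc7a11 and Hbb-bs were among them. Serpina3g, a protease inhibitor induced in inflammation, was at 4.36, 6.56 and 6.42 CPM in weak and 22.1, 12.6 and 44.5 CPM in strong CKO, against 0.663 to 2.02 CPM in wild type. It belongs to a family of close copies, among which reads could be split. Dcn, the matrix proteoglycan decorin, was at 79.5, 69.8 and 76.99 CPM in weak and 128, 92.7 and 120.3 CPM in strong CKO, with wild type at 25.4 to 32.1 CPM, and DESeq2 called it (adjusted p = 0.0442). Cdc20, an activator of the anaphase-promoting complex, was at 30.1 to 36.3 CPM in weak and 42.2 to 51.03 CPM in strong CKO. Dvl1, a Wnt signal transducer, was at 50.4 to 52.97 CPM in weak and 60.1 to 69.1 CPM in strong CKO, beside 56.5 to 64.7 CPM in wild type. Tctex1d2, a dynein light chain gene, was at 12.8 to 13.97 and 17.3 to 18 CPM (0.42 ± 0.08, adjusted p = 0.838). Odf3b, Ubxn11, Mok, the RNA-binding protein gene Rbm24 and Fam220a had log2 changes of 0.43 ± 0.11, 0.36 ± 0.09, 0.40 ± 0.10, 0.45 ± 0.11 and 0.61 ± 0.15.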

How the data were processed

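The deposited table, by the authors, held whole-number counts per gene for 9 libraries, not normalised, with RPKM values and a gene length beside them per the file headers. The submitters' processing notes list cutadapt 2.5, FastQC 0.11.8, STAR, Trimmomatic 0.36, edgeR 3.28.1 and GRCm38.p6. How reads were counted, with or without strand, and how reads of close copies were treated is not stated in those notes, so overlapping, antisense and paralogous genes are uncertain. Of 27207 genes, 19374 passed filterByExpr. Strong minus weak CKO was tested with edgeR 4.0.16 (TMM, robust quasi-likelihood F test, all 9 libraries, 1 mean per group, two-sided, Benjamini-Hochberg over all genes tested, threshold 0.05). The fit was also run on counts simulated with the spread fitted here and with independent libraries. That run therefore does not bear on how the lungs are related. Errors of log2 changes are standard errors and levels are TMM CPM. The common biological coefficient of variation was 0.15. An exact permutation test of 3 against 3 cannot go below p = 0.1, so none was used.

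The groups compared, the 53 lists (942 genes) and the tests were chosen with earlier results of these data known. Genes named are Dnmt1, Xist, Ddx3y, the haemoglobin genes, up to 12 per direction (called genes, then the smallest p, at a mean log2 CPM of at least 1 and without overlap) and up to 3 of highest abundance per list; the other genes were named after their values were seen. Alternatives were other scalings and filters, DESeq2 1.42.0, limma 3.58.1 on log2(RPKM + 1) and log2(RPKM + 0.1), covariates, a block and leaving out each library; counts of list members without overlap with 1 CKO library left out were added after the data were seen. Gene positions come from GENCODE vM21, and promoters from RefSeq (GRCm38.p6).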

Additional observations from a re-analysis of the deposited data

How the results depend on the processing

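Rpl35a kept its direction in all 21 alternatives, with log2 changes from -0.95 to -0.82, and its call in 20 of them; with the erythroid level as a covariate no gene was called in either direction (0 higher, 0 lower). Called genes numbered 2 higher and 13 lower with DESeq2, 4 lower when only the 6 CKO libraries were fitted, and 1 higher with log2(RPKM + 0.1). When each of the 9 libraries was left out in turn, 0 to 3 genes were called higher and 1 to 3 lower, and 0 to 2 listed genes were called: Apoh without MUT_W_268_3, and Ccl2 and Ccl7 without MUT_S_268_4. Besides Rpl35a, 3 higher genes were called without MUT_W_268_3, 2 without MUT_S_268_4 and 1 without MUT_W_265_2, and the lower genes, Rpl35a included, came to 3 without WT_265_1 and 2 without MUT_S_860_3. DESeq2 called 1 listed gene, Ifi27. The replicate block used the middle numbers of the library names, of which the CKO groups share 2. It was left out of the main fit because no source says what the number marks. Same-number deviations correlated at 0.169 and -0.000546, and those of different numbers at -0.195 to 0.190. The 2 same-number pairs are too few to show whether the numbers pair the lungs. With the block, 0 genes were called higher and 3 lower (Rpl35a, Dnah11 and Sec16b). The log2 change went from 1.18 to 0.78 for Hbb-bs and from 1.29 to 0.85 for Ccl2, while Dnah11 went from -0.96 to -1.06.

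Some of the 131 named genes, most with a change near 0, changed sign, and the cause was not tested. The erythroid level is a mean over the haemoglobin and erythroid genes, so Hbq1b and Slc4a1 are part of it. Log2 changes turned, with the replicate block, for Dnmt1 (0.067), Hbq1b (-0.067), Xist (-0.95), Vwf (-0.029), Dnah5 (-0.15), Vcam1 (-0.020), Ddx58 (-0.28), Stat2 (-0.16), Bnip3l (-0.039), Hspa5 (-0.013), Meg3 (0.0082) and Dazl (-0.013); with the erythroid level as a covariate, for Dnmt1 (0.24), Hbq1b (-0.38), Slc4a1 (-0.012), Hp (-0.15), Vwf (-0.094), Dnah5 (-0.40), Vcam1 (-0.055), Cxcl10 (-0.24), Ddx58 (-0.41), Stat2 (-0.18), Bnip3l (-0.14), Pdia4 (0.054), Xbp1 (0.0042) and Meg3 (0.23); and with the level of Y-linked genes in the fit, for Xist (-2.17), Ddx3y (0.025), Dnah5 (-0.0061), S100a8 (0.0031) and Pdia4 (0.0013). When single libraries were left out, the log2 change took both signs for Vegfa (-0.063 to 0.043), S100a8 (-0.34 to 0.056), Saa3 (-0.33 to 0.16), Cat (-0.20 to 0.018), Xist (-0.015 to 0.57), Ddx3y (-11.54 to 0.44), Pdia4 (-0.051 to 0.023), Meg3 (-0.28 to 0.0018), Dnmt3a (-0.051 to 0.021), Dnmt1 (-0.13 to 0.098), Vwf (-0.057 to 0.29), Dnah5 (-0.12 to 0.46), Ddx58 (-0.24 to 0.27), Stat2 (-0.18 to 0.77) and Bnip3l (-0.021 to 0.091).

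With 3 lungs per group and a median standard error of 0.14, small differences are below what these data can call. Depth, which was lower in every strong library, cannot be told apart from phenotype.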

Other observations

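A few genes outside the lists, picked after their values were seen, were called in some alternatives only. Sec16b, which encodes a protein of endoplasmic reticulum exit sites, was at 11.5, 10.4 and 11.2 CPM in weak and 2.18, 2.68 and 19.02 CPM in strong CKO, against 1.88 to 2.83 CPM in wild type. MUT_S_265_5 and MUT_S_268_4 were near wild type and MUT_S_860_3 was above every weak library, so the log2 change was -0.46 ± 0.73 over all libraries (edgeR adjusted p = 0.952) and -2.17 without MUT_S_860_3 (adjusted p = 0.0306). Lrrc18, a leucine-rich repeat gene, was at 12.6, 12.5 and 11.2 CPM in weak and 4.07, 3.92 and 4.78 CPM in strong CKO, without overlap, and at 8.13, 3.07 and 2.46 CPM in wild type, where 1 library stood above the others. Its log2 change was -1.50 ± 0.38 (edgeR adjusted p = 0.873; DESeq2 adjusted p = 0.0442). Hebp1, which encodes a haem-binding protein, was at 33.9, 44.6 and 33.21 CPM in weak and 14.8, 14.5 and 14.5 CPM in strong CKO, with nearly equal strong libraries, while wild type libraries were at 54.2, 14.95 and 28.1 CPM. Its log2 change was -1.35 ± 0.41 (edgeR adjusted p = 0.873), and it was called when only the 6 CKO libraries were fitted.

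Of 21 sterol and fatty acid synthesis genes none was called and the median log2 change was 0.08. Without overlap 6 were higher (28.6%, beside 6.7% of all genes) and 1 was lower (4.76%, beside 6.73%). Of 16 airway secretory and basal genes 15 had a positive log2 change, with a median of 0.27, and 1 was higher without overlap (6.25%). Without MUT_W_265_2, 5 were higher, beside 12.1% of all genes. Without MUT_W_549_3, 4 were, beside 14%, and without MUT_S_265_5, 3 were, beside 9.83%.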
